A study of Arabidopsis thaliana with 6 samples.

Results

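Glutathione transferases and UDP-glycosyltransferases are the enzymes that attach glutathione or a sugar to small molecules, and their transcripts were compared between Arabidopsis seedlings that overexpress the rice homeobox gene OsHOX24 and wild type (WT) seedlings. The members were all genes measured by their own probe set whose RefSeq symbol marks them as a tau or phi glutathione transferase (GSTU, GSTF or ATGSTF with a number) or as a UDP-glycosyltransferase (UGT with 2 digits and a letter). These were 60 of the 13286 genes that had such a probe set, namely 13 glutathione transferases (11 tau, 2 phi) and 47 UDP-glycosyltransferases. RefSeq lists 98 genes under the same symbols, and the remaining 38 were not analysed here. Of these, 4 share their probe set with other genes (UGT73B2, UGT73B3, UGT71D1 and UGT89B1), and for 34 no probe set was named here. Most of this gap was in the glutathione transferases, of which 13 of 40 were measured (11 of 27 tau, 2 of 13 phi). Of the UDP-glycosyltransferases, 47 of 58 were measured. None of the 60 genes passed the test of overexpression against WT. The genes with brighter signals differed instead between arrays of the same genotype. Of these 27 genes, 14 (51.9%, against 19.4% of all brighter probe sets) were highest on the same array of each genotype. Those arrays also shared deviations over all brighter probe sets.

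The transgenic seedlings (35S::OsHOX24) came from 1 homozygous line, HZIP1-2.3, in which the CaMV 35S promoter drives the rice gene, and the paper names this line while the labels give only the genotype. WT seedlings were of ecotype Columbia, the background of the line. Seedlings of both genotypes were 10 days old, grown on MS medium without stress treatment, and 3 independent biological replicates per genotype were hybridised to Affymetrix arrays. The transcript of the rice gene was not analysed here, so the overexpression itself was not checked in these arrays.

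Glutathione transferases join the thiol of glutathione to electrophilic compounds such as herbicides, explosives and products of lipid oxidation, and the conjugates are carried into the vacuole. The tau and phi classes are the large plant classes, and many of their genes respond to chemical and oxidative stress. UDP-glycosyltransferases transfer a sugar from a UDP-sugar to hormones, flavonoids, phenylpropanoids and foreign compounds, which changes their solubility, activity and storage, and the 2 digits of a UGT symbol name the family within the enzyme class.

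The authors deposited MAS5 signals on the log2 scale, in which 1 unit is a 2-fold step, and the values below are on that scale, in the order of arrays 1, 2 and 3 of each genotype. Over all 22746 probe sets tested, the median signal was 7.29, and the array medians were 7.25 to 7.42. The signal of a probe set depends on its own probes as well as on the transcript, so signals of different genes do not compare as amounts of RNA, and the median of all probe sets served as a line between brighter and dimmer genes. Between genotypes, 575 probe sets (2.53%) passed the study's thresholds of a 2-fold difference and an unadjusted p of at most 0.05 with limma, 208 of them higher and 367 lower in 35S::OsHOX24. With quantile normalization the split was 264 higher and 303 lower. After Benjamini-Hochberg adjustment limma left none below 0.05 (smallest adjusted p = 0.214), while 785 (3.45%) had an unadjusted p under 0.05, and 798 by the methods' t-test. Of marker lists for the seedling tissues, 1 of 7 leaf genes and 2 of 13 root genes were measured, and none of 4 flower and pollen genes or 4 seed genes. RCA, which encodes Rubisco activase of green tissue, had signals of 14.74, 14.50 and 14.37 in 35S::OsHOX24 and 14.28, 14.40 and 14.69 in WT. The arrays measured whole seedlings, in which fewer cells of a type and less RNA per cell cannot be told apart.

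Of the 60 genes, 27 (45.0%) averaged more than the median of all probe sets and 33 lay below it. Among the tau glutathione transferases, 7 of 11 lay above it, with a class median of 7.81 and means between 2.65 (GSTU15) and 11.71 (GSTU20). GSTF4 (4.92) and ATGSTF13 (4.43), the only 2 of 13 phi genes measured, both lay below. Of the UDP-glycosyltransferases, most families straddled the line: 3 of 9 UGT71 genes, 2 of 4 UGT72, 1 of 7 UGT73, 1 of 3 UGT74, 4 of 8 UGT76, 2 of 3 UGT78, 1 of 5 UGT84 and 3 of 5 UGT85 genes lay above it. UGT80B1 (8.45), which glucosylates sterols, UGT87A2 (11.41), which affects flowering time, and UGT88A1 (10.06) all lay above the line. Each was the only gene of its family among the 60.

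**Figure D1:**
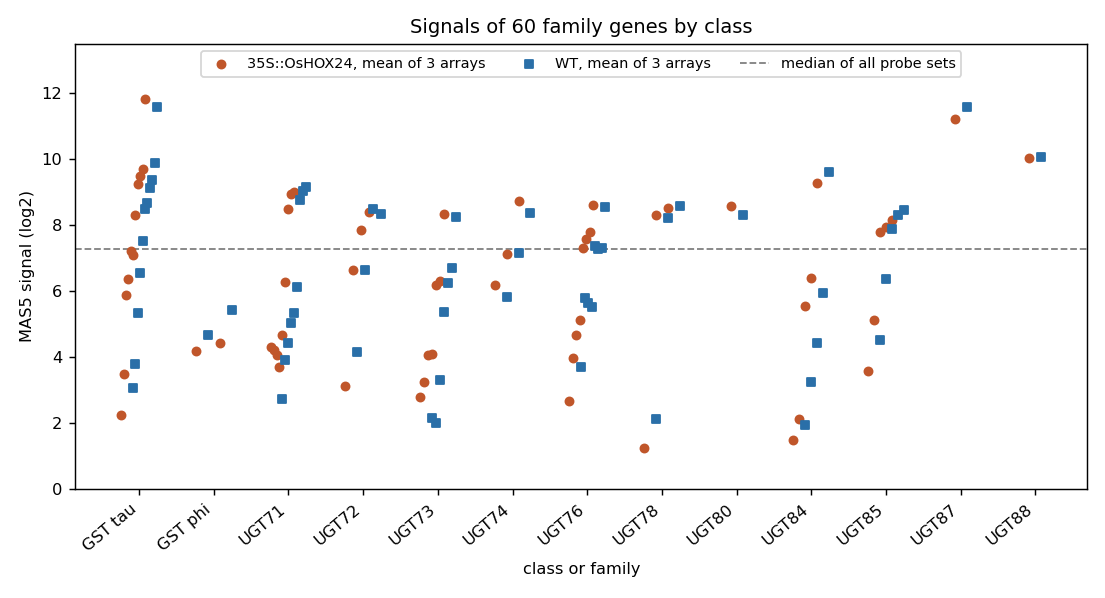
Mean MAS5 signal (log2) of each of the 60 genes by class or family; circles are means of the 3 arrays of 35S::OsHOX24, squares are means of the 3 arrays of WT, and the dashed line is the median of all probe sets (7.29). Most classes hold genes on both sides of the line, and 7 of the 11 measured tau genes lie above it.

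Some neighbouring genes took different sides of this line. Members of the same enzyme class with at most 2 other protein-coding genes between them were counted as neighbours, and 37 genes formed 15 such groups, of which 7 had genes on both sides of the median, 6 lay wholly below it and 2 wholly above it. GSTU20, GSTU21, GSTU22 and GSTU23 form such a group. GSTU20, whose protein binds the jasmonate-conjugating enzyme JAR1, had 11.59, 11.21 and 12.66 in 35S::OsHOX24 and 11.90, 11.82 and 11.05 in WT. GSTU22 had 8.53, 7.32 and 9.06 in 35S::OsHOX24 and 8.60, 9.77 and 7.66 in WT. Both were above the line on every array, although the genotypes overlapped in each. GSTU23 had 6.31, 5.94 and 6.83 in 35S::OsHOX24 and 6.68, 6.30 and 6.66 in WT, below the line throughout. GSTU21 had 5.46, 4.98 and 0.00 in 35S::OsHOX24 and 3.15, 4.27 and 3.92 in WT, and a value listed at 0 in this table stands for a signal at the bottom of the scale. GSTU21 and UGT73C2 were the only members with such a value.

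In the comparison of 35S::OsHOX24 with WT, 0 of the 60 genes passed the thresholds, where 2.53% of all probe sets did, and limma's adjusted p was 1 for each of them. UGT78D3 was the only gene with an unadjusted p under 0.05, which 3.45% of all probe sets had. UGT84A4 joined it with the methods' t-test and with quantile normalization, and neither gene was below 0.05 with a variance trend or with log2(signal + 16). Of the 60 differences, 39 were negative (65.0%, against 53.6% of all probe sets), and their median was -0.17, against -0.03 for all probe sets. This lean moved in both directions with single arrays. Without array 2 of 35S::OsHOX24, 28 differences were negative and the median was 0.01. Without its array 3, 45 were negative and the median was -0.34, and without array 3 of WT 39 were negative with a median of -0.31. With quantile normalization or median centring 36 were negative. The median standard error of a difference was 0.49 for the members and 0.36 for all probe sets. An absolute difference of at least 1 was found in 11 genes (18.3%, against 9.75% of all probe sets). These were 10 of the 33 dimmer genes (30.3%) and 1 of the 27 brighter genes (3.70%, against 0.519% of all brighter probe sets). Such differences were mostly a matter of dim signal over all probe sets too: of 2218 probe sets with one, 59 were brighter. With the p threshold as well, 0.220% of all brighter probe sets passed and 0 of the 27 genes.

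The genes were measured with limited precision, and a p above the threshold does not show that the genotypes were alike. The 95% interval of the difference included 0 for 59 of the 60 genes. Among the 27 brighter genes it lay within 1 log2 unit of 0 for only 6, which were GSTU16, UGT71C4, UGT71C5, UGT85A2, UGT85A5 and UGT88A1. For the other 21 a 2-fold difference in at least 1 direction remained inside the interval. UGT88A1 had 9.80, 10.07 and 10.28 in 35S::OsHOX24 and 9.91, 10.06 and 10.27 in WT, with a difference of -0.03 (95% interval -0.62 to 0.56), the narrowest interval of the brighter genes.

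**Figure D2:**
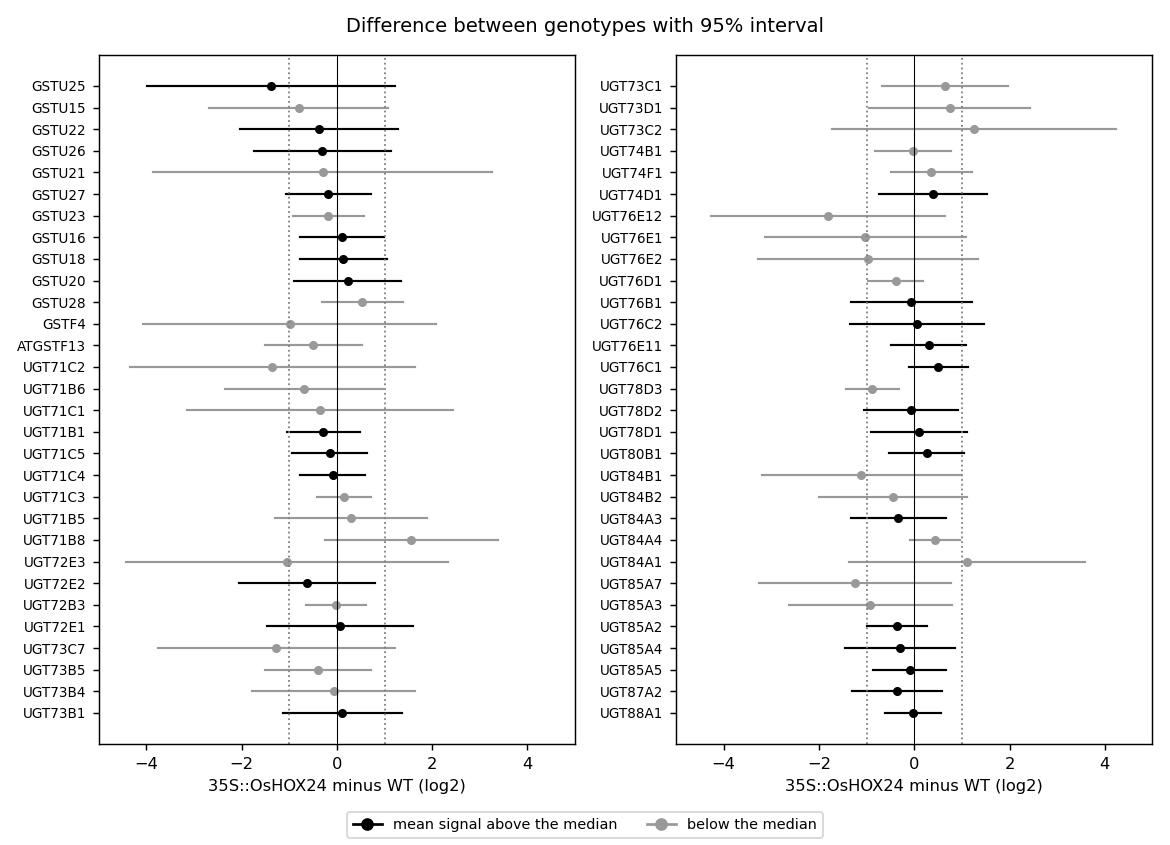
Difference between genotypes (35S::OsHOX24 minus WT, log2) of the 60 genes with its 95% interval from limma, black for brighter genes and grey for dimmer ones; dotted lines mark 1 log2 unit. The interval of UGT78D3 alone leaves out 0, and none of the 60 genes passed the thresholds.

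In 5 of the 60 genes (8.33%) the arrays of the genotypes did not overlap, where 7.17% of all probe sets had no overlap. With 3 arrays against 3 an exact permutation test cannot give a p below 0.1 (two-sided, 20 splits of the arrays), which is the value each of the 5 reached. UGT76C1 and UGT84A4 were the 2 higher ones in 35S::OsHOX24, where 3.04% of all probe sets were higher without overlap. UGT76C1, which glucosylates cytokinins on a ring nitrogen, had 7.60, 7.95 and 7.85 in 35S::OsHOX24 and 7.51, 7.42 and 6.96 in WT, a difference of 0.50 (SE 0.25, 95% interval -0.12 to 1.13). It was the only one of the 5 above the median signal. UGT84A4, one of the enzymes that form glucose esters of sinapate and other hydroxycinnamates, had 6.24, 6.35 and 6.58 in 35S::OsHOX24 and 5.95 on all 3 WT arrays, a difference of 0.43 (SE 0.21, 95% interval -0.08 to 0.95).

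The other 3 genes without overlap were lower in 35S::OsHOX24, against 4.13% of all probe sets. UGT78D3, a flavonol arabinosyltransferase, had 1.17, 1.48 and 1.08 in 35S::OsHOX24 and 2.26, 2.02 and 2.1 in WT, a difference of -0.88 (SE 0.23, 95% interval -1.44 to -0.33). These signals lie near the bottom of the scale, and with 16 added to the linear signal the difference was -0.15. UGT76D1, which glucosylates dihydroxybenzoic acids, had 5.14, 5.28 and 4.99 in 35S::OsHOX24 and 5.82, 5.42 and 5.35 in WT, a difference of -0.39 (95% interval -0.97 to 0.19). UGT76E12 had 1.61, 5.58 and 4.73 in 35S::OsHOX24 and 5.68, 5.92 and 5.76 in WT. Its difference of -1.81 (95% interval -4.26 to 0.64) was -0.63 without array 1 of 35S::OsHOX24.

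By class, the median difference was -0.18 in the 11 measured tau glutathione transferases and -0.75 in the 2 measured phi genes. It was between -0.36 and 0.35 in the UGT families with at least 3 measured genes. UGT85 had the only negative differences throughout among these families: UGT85A2 (-0.36), UGT85A3 (-0.93), UGT85A4 (-0.30), UGT85A5 (-0.10) and UGT85A7 (-1.25). None of these 5 passed the thresholds, and their arrays overlapped. UGT85A2 had 7.98, 7.70 and 8.14 in 35S::OsHOX24 and 8.44, 8.49 and 7.98 in WT. UGT85A7, a dim neighbour of it, had 3.27, 6.24 and 5.83 in 35S::OsHOX24 and 5.89, 6.20 and 6.99 in WT, where 1 low array carried most of the difference. Of the phi genes, GSTF4 had 4.48, 2.16 and 6.63 in 35S::OsHOX24 and 4.65, 7.04 and 4.55 in WT.

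None of the 11 measured tau genes passed the thresholds. GSTU25 conjugates the explosive TNT in Arabidopsis, and it had 7.21, 5.58 and 8.55 in 35S::OsHOX24 and 9.53, 9.39 and 6.57 in WT. It was the 1 brighter gene with a mean difference of at least 2-fold (-1.39, SE 1.07, 95% interval -3.99 to 1.22), and each genotype held low and high arrays. Without array 3 of WT its difference was -2.35 and passed the thresholds, as did 638 of all 22746 probe sets. Without array 2 of 35S::OsHOX24 the difference of GSTU25 was -0.62. Its tandem neighbour GSTU26 had 6.87, 6.58 and 8.22 in 35S::OsHOX24 and 7.69, 8.25 and 6.68 in WT, a difference of -0.31 (95% interval -1.75 to 1.13). GSTU27 had 9.85, 9.21 and 10.10 in 35S::OsHOX24 and 10.23, 10.13 and 9.35 in WT. GSTU16 (0.10), GSTU18 (0.13) and GSTU20 (0.23) had small positive differences. GSTU28 had the largest positive one of the class (0.53, 95% interval -0.31 to 1.38), with 5.45, 5.92 and 6.27 in 35S::OsHOX24 and 5.39, 5.77 and 4.88 in WT.

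Genes that act on hormones and defence compounds followed no single direction. UGT71B8 and UGT71B6 can glucosylate abscisic acid, and they lie in 1 tandem group. UGT71B8 had 4.27, 4.19 and 4.44 in 35S::OsHOX24 and 4.45, 1.5 and 2.27 in WT. Its difference of 1.56 (95% interval -0.26 to 3.38) was the largest positive one of the 60. These are dim signals, and with log2(signal + 16) the difference was 0.54. UGT71B6 had 3.42, 5.38 and 5.19 in 35S::OsHOX24 and 6.34, 4.65 and 5.07 in WT, a difference of -0.69. UGT71C5, which also acts on abscisic acid and has a brighter signal, had 9.07, 9.02 and 8.91 in 35S::OsHOX24 and 9.65, 8.60 and 9.21 in WT. Its difference was -0.16 (95% interval -0.93 to 0.62). UGT74D1, which glucosylates auxins, differed by 0.39 and UGT84B1, which acts on indole-3-acetic acid, by -1.11, both with intervals that include 0. UGT74F1 glucosylates salicylate and had 6.06, 6.77 and 5.70 in 35S::OsHOX24 and 5.85, 6.09 and 5.53 in WT. UGT76B1, which acts on N-hydroxypipecolate and salicylate, had 6.93, 6.96 and 8.06 in 35S::OsHOX24 and 8.20, 7.33 and 6.60 in WT, a difference of -0.06 (95% interval -1.33 to 1.21).

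The genes of phenolic and flavonoid glycosylation lay on both sides of the median signal. UGT78D1, a flavonol 3-O-rhamnosyltransferase, had 7.72, 8.13 and 9.09 in 35S::OsHOX24 and 8.38, 8.44 and 7.84 in WT. UGT78D2, a flavonoid 3-O-glucosyltransferase, had 7.94, 8.35 and 9.30 in 35S::OsHOX24 and 8.70, 8.82 and 8.28 in WT. Their differences were 0.09 (95% interval -0.92 to 1.11) and -0.07 (95% interval -1.05 to 0.91), and the genotypes overlapped in both. UGT84A3, which makes hydroxycinnamate glucose esters, had 8.49, 9.73 and 9.60 in 35S::OsHOX24 and 9.25, 9.93 and 9.65 in WT, and its dim neighbour UGT84A1 differed by 1.11 (95% interval -1.36 to 3.57). UGT72E1, UGT72E2 and UGT72E3 glucosylate monolignols and their aldehydes. UGT72E2 had 6.81, 7.82 and 8.96 in 35S::OsHOX24 and 8.17, 9.04 and 8.29 in WT, a difference of -0.64 (95% interval -2.07 to 0.80). UGT72E3 lay below the median with 1.37, 1.89 and 6.08 in 35S::OsHOX24 and 4.05, 5.56 and 2.87 in WT. UGT74B1, which completes the glucosinolate core, had 6.75, 6.96 and 7.72 in 35S::OsHOX24 and 6.93, 7.30 and 7.28 in WT, a difference of -0.03 (95% interval -0.82 to 0.77). The genotypes overlapped in each gene of this paragraph, unlike in UGT78D3 and UGT84A4, which act on the same kinds of compound and are described above.

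In the UGT73 family, UGT73B1 (0.11) was the only gene above the median signal. UGT73B4, which glycosylates TNT, had 6.81, 4.99 and 6.75 in 35S::OsHOX24 and 7.31, 6.05 and 5.39 in WT. Its neighbour UGT73B5, a gene known to respond to pathogens, had 6.25, 5.50 and 7.15 in 35S::OsHOX24 and 6.68, 6.97 and 6.43 in WT. The dim genes UGT73C1, which acts on cytokinins in vitro, UGT73C2 and UGT73D1 had differences of 0.65, 1.26 and 0.74, and UGT73C7 of -1.27, none of them past the thresholds. Among the UGT76 genes, UGT76E11 differed by 0.31, UGT76E2 by -0.97 and UGT76E1, which acts on hydroxylated jasmonate, by -1.03. The remaining genes had uncalled differences between -1.36 and 0.30: UGT71B1 (-0.29), UGT71B5 (0.30), UGT71C1 (-0.36), UGT71C2 (-1.36), UGT71C3 (0.15), UGT71C4 (-0.09), UGT72B3 (-0.02), UGT80B1 (0.26), UGT84B2 (-0.45), UGT87A2 (-0.36), GSTU15 (-0.80) and ATGSTF13 (-0.50).

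**Figure D3:**
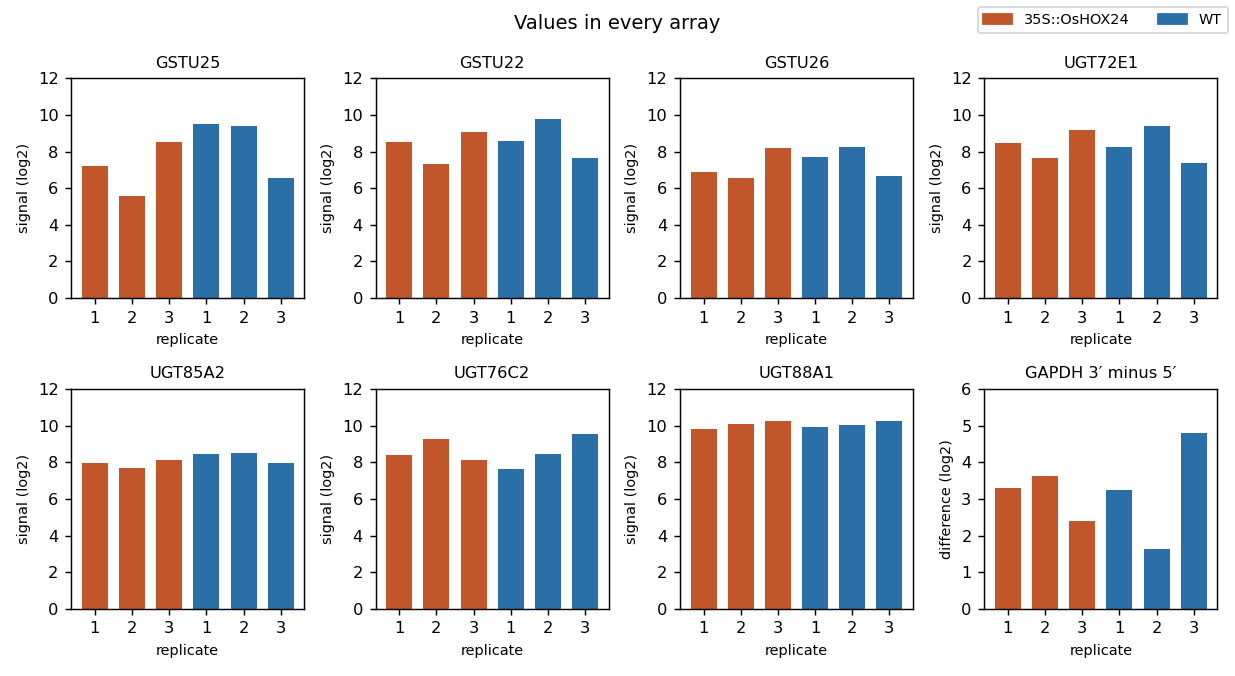
MAS5 signal (log2) of 7 genes and the GAPDH 3′ minus 5′ difference (log2) on each array; each bar is 1 array, with 35S::OsHOX24 left of WT. The 3 arrays of 35S::OsHOX24 differ by up to 2.97 in GSTU25 and the 3 of WT by up to 2.96, and the GAPDH difference is smallest on array 3 of 35S::OsHOX24 and array 2 of WT.

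Replicates of the same genotype varied more for most of the brighter members than for the typical probe set of like signal. Spread is given here as the SD within genotypes, pooled over both, and all probe sets were split into 4 equal bins of mean signal. Among the 20 members in the third bin (7.29 to 9.08) the median SD was 0.59, against 0.34 for all probe sets of that bin, and 17 of the 20 lay above 0.34. Among the 7 in the highest bin the median SD was 0.48, against 0.29, and 6 of the 7 lay above it. The 17 members of the second bin had 0.62 against 0.48, and in the lowest bin, where all signals scatter, the 16 members had 1.1 against 1.17. GSTU25 had an SD of 1.58, the rank of 32 among the 11373 probe sets above the median, and its highest and lowest array differed 7.81-fold within 35S::OsHOX24 and 7.79-fold within WT. GSTU22 followed with 0.98, then UGT72E1 with 0.89, GSTU26 with 0.84, UGT72E2 with 0.83 and UGT76C2 with 0.82. These are descriptions of 6 arrays, without a test.

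**Figure D4:**
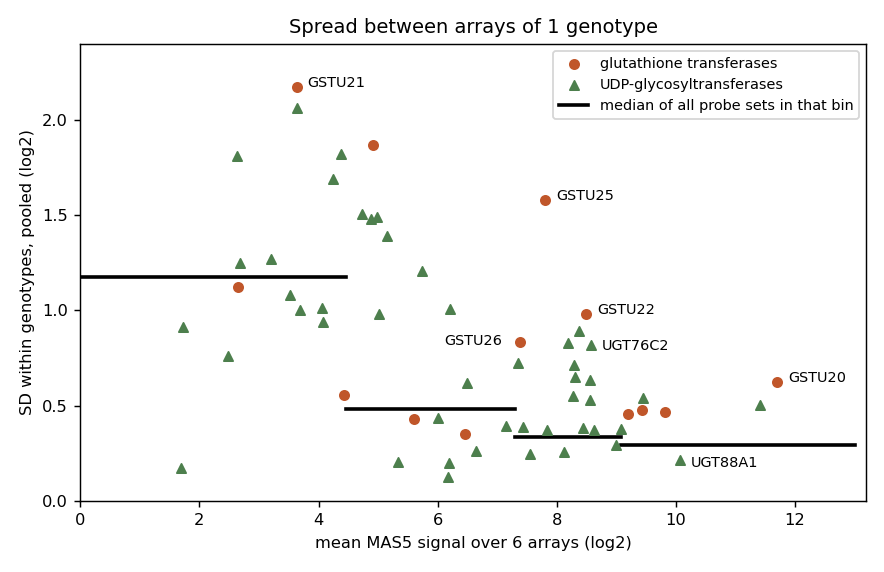
SD within genotypes, pooled (log2), against the mean MAS5 signal over the 6 arrays (log2); each point is a gene and the black lines are the median SD of all probe sets in each of 4 equal bins of signal. Above the line lie 17 of the 20 genes of the third bin and 6 of the 7 of the highest.

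Many of the 27 brighter genes were highest on the same arrays, a pattern noticed after the values were seen. In 35S::OsHOX24, array 3 was the highest of its genotype for 19 of the 27 genes (70.4%, against 30.3% of all brighter probe sets). In WT, array 2 was the highest for 16 (59.3%, against 32.8%) and array 3 the lowest for 16 (59.3%, against 33.6%). Both array 3 of 35S::OsHOX24 and array 2 of WT were highest in 14 genes (51.9%, against 19.4%). The median deviation of the 27 genes from their genotype mean was -0.25, -0.19 and 0.54 on arrays 1, 2 and 3 of 35S::OsHOX24 and -0.08, 0.27 and -0.21 on those of WT. For all brighter probe sets the same medians were 0.01, 0.06 and -0.07 in 35S::OsHOX24 and 0.03, -0.04 and 0.00 in WT.

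UGT72E1 shows the pattern in full, with 8.45, 7.63 and 9.16 in 35S::OsHOX24 and 8.27, 9.39 and 7.39 in WT, and a difference between genotypes of only 0.06 (95% interval -1.46 to 1.59). GSTU22, GSTU26, UGT73B1 and UGT85A2 took the same order, with array 3 of 35S::OsHOX24 and array 2 of WT highest and array 2 of 35S::OsHOX24 and array 3 of WT lowest. These 5 genes made 18.5% of the 27, against 7.86% of all brighter probe sets. UGT78D1 and UGT78D2, which are on different probe sets, deviated almost alike. UGT78D1 deviated by -0.59, -0.19 and 0.78 in 35S::OsHOX24 and 0.16, 0.22 and -0.38 in WT. UGT78D2 deviated by -0.59, -0.18 and 0.77 in 35S::OsHOX24 and 0.10, 0.22 and -0.32 in WT. Of the 351 pairs of the 27 genes, 32 had deviations that correlated above 0.9. The UGT78D1 and UGT78D2 pair was the closest (0.997). UGT71B1 with GSTU18 (0.995) and GSTU22 with UGT72E1 (0.993) were nearly as close. UGT76C2 and UGT85A4 differed from the pattern of UGT72E1, being lowest on array 3 of 35S::OsHOX24 and highest on array 3 of WT. The reverse, lowest on both array 3 of 35S::OsHOX24 and array 2 of WT, was found in 2 genes, UGT85A4 and UGT71C5 (7.41%, against 29.5% of all brighter probe sets). UGT76C2, a cytokinin N-glucosyltransferase beside UGT76C1, had 8.41, 9.29 and 8.11 in 35S::OsHOX24 and 7.62, 8.44 and 9.57 in WT. UGT85A4 had 8.57, 8.17 and 7.74 in 35S::OsHOX24 and 8.76, 7.54 and 9.09 in WT.

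**Figure D5:**
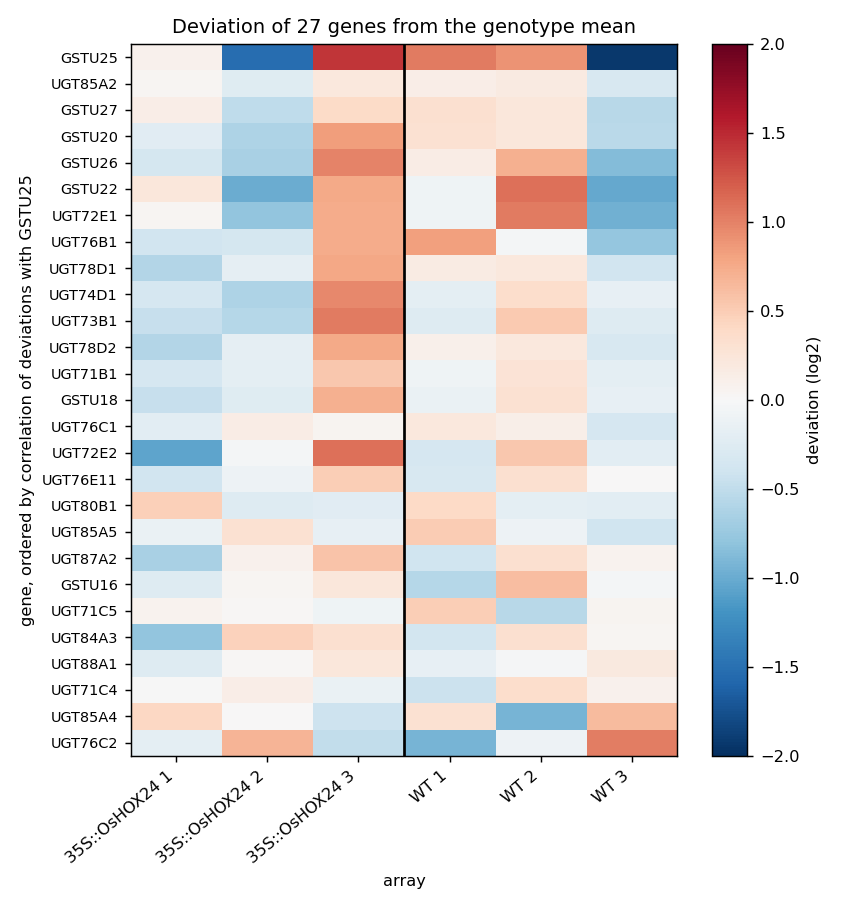
Deviation of each of the 27 brighter genes (rows) from its genotype mean on each array (columns, 35S::OsHOX24 left of WT), in log2 units; rows are ordered by the correlation of their deviations with those of GSTU25. In 14 of the 27 rows array 3 of 35S::OsHOX24 and array 2 of WT are both the highest of their genotype, and UGT76C2 and UGT85A4 are lowest on array 3 of 35S::OsHOX24 and highest on array 3 of WT.

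Among control measures of the arrays, a pair of GAPDH probe sets moved with this pattern in both genotypes, and the other pairs matched it in part. The GAPDH control compares probe sets at both ends of 1 transcript, and its 3′ minus 5′ signal was 3.29, 3.63 and 2.39 in 35S::OsHOX24 and 3.25, 1.63 and 4.80 in WT. This difference was thus smallest on array 3 of 35S::OsHOX24 and array 2 of WT, where 19 and 16 of the 27 genes were highest. With this pair of probe sets it was largest on array 2 of 35S::OsHOX24 and array 3 of WT. Its deviations from the genotype mean correlated below -0.7 with those of 8 of the 27 genes and of 18.2% of all brighter probe sets. The actin control had 6.42, 6.01 and 6.57 in 35S::OsHOX24 and 6.27, 5.37 and 6.84 in WT, the order of GAPDH within WT only. The ubiquitin control had 3.67, 3.40 and 3.42 in 35S::OsHOX24 and 2.78, 2.76 and 3.58 in WT. A second pair of GAPDH probe sets gave 1.49, 1.42 and 1.06 in 35S::OsHOX24 and 1.49, 0.45 and 2.06 in WT. It was smallest on the same arrays as the first, but largest on array 1 within 35S::OsHOX24. The second ubiquitin pair took that order too, with 1.89, 1.87 and 1.67 in 35S::OsHOX24 and 2.20, 1.17 and 2.35 in WT. The second actin pair was smallest on array 2 of both genotypes. Of the root markers, which stand for another tissue in a whole seedling, EXPA18 had 5.45, 5.78 and 7.42 in 35S::OsHOX24 and 6.20, 6.0 and 5.64 in WT, and EXPA7 had 4.69, 4.70 and 5.45 in 35S::OsHOX24 and 2.86, 5.47 and 3.28 in WT. Both were highest on array 3 within 35S::OsHOX24, no marker was at 0, and the part of the controls or the tissues in the members' values was not tested. Deviations over the 27 genes correlated at 0.70 between array 3 of 35S::OsHOX24 and array 2 of WT, and at 0.68 over all brighter probe sets, so these arrays also shared deviations outside the 2 families. Between array 2 of 35S::OsHOX24 and array 3 of WT the correlation was 0.85 over the 27 genes and 0.62 over all brighter probe sets, and between the arrays numbered 1 it was 0.39 and 0.46. These correlations describe 6 arrays and were not tested.

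The pathways around these enzymes were measured by few genes, and none of them passed the thresholds. Of 12 glutathione transferases of other classes 1 was measured, GSTL3 of the lambda class, with 11.05, 10.92 and 11.61 in 35S::OsHOX24 and 11.57, 11.41 and 10.72 in WT (difference -0.04, 95% interval -0.86 to 0.78). Of 11 genes of glutathione synthesis, reduction and turnover 2 were measured, both glutathione reductases. GR1, the cytosolic enzyme, had 9.48, 9.21 and 10.22 in 35S::OsHOX24 and 9.62, 10.34 and 9.38 in WT, the same order of arrays as in UGT72E1 and its like. GR, the enzyme of plastids and mitochondria, had 11.38, 11.34 and 11.04 in 35S::OsHOX24 and 11.29, 10.64 and 10.93 in WT. Of 8 genes of flavonoid synthesis 1 was measured, the dihydroflavonol reductase DFR, with 4.96, 5.77 and 6.89 in 35S::OsHOX24 and 7.57, 5.37 and 6.15 in WT. None of 10 transporters of conjugates and none of 11 chemical stress response genes was measured here.

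A further 4 UDP-glycosyltransferases are on the arrays under other RefSeq symbols, which the symbol rule does not take in, and none of these passed the thresholds. UF3GT (UGT79B1), which adds xylose to anthocyanins, had 4.44, 5.58 and 5.98 in 35S::OsHOX24 and 5.80, 4.36 and 2.69 in WT, a difference of 1.05 (95% interval -1.01 to 3.11). GT72B1 (UGT72B1) had 8.20, 7.83 and 9.43 in 35S::OsHOX24 and 8.31, 9.36 and 8.0 in WT. It took the order of arrays seen in UGT72E1, with a difference of -0.07 (95% interval -1.42 to 1.27). SGT (UGT80A2), a sterol glucosyltransferase, had 9.23, 9.34 and 8.70 in 35S::OsHOX24 and 9.35, 8.76 and 9.17 in WT, and AT5G54010 (UGT79B6) had 3.86, 4.64 and 2.71 in 35S::OsHOX24 and 1.94, 2.03 and 4.46 in WT.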

How the data were processed

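Total RNA of 10-day-old seedlings was hybridised to 6 Affymetrix arrays, 3 per genotype. The authors computed MAS5 signals (its version was not given in the sources used here), scaled each array and deposited the values as log2 signals; on the linear scale every array had a 2% trimmed mean of 500.05 to 500.06, and 163 to 512 probe sets per array were listed at 0. The number of arrays limits the precision.

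The deposited log2 values of 22746 probe sets, without 64 controls, were compared as 35S::OsHOX24 minus WT with limma 3.58.1 in R 4.3.3 (no covariate), with Benjamini-Hochberg adjustment over all of them. The thresholds were the study's. Genes came from the platform's annotation updated through RefSeq (TAIR10.1), which matched 13436 of 13513 probe sets with a single gene; 503 had several and 8730 none. No member had more than 1 probe set.

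The members, lists and alternatives were chosen with earlier results of these data known. The naming rule took genes past the thresholds, those with the lowest p, the widest spread or the highest signal of a class, their neighbours and list members; the remaining members were named after their values were seen. Alternatives were Student's t-test (the methods' t-test), a variance trend, log2(signal + 16), quantile normalization, median centring, a percentile filter, leaving out cross-hybridizing probe sets, a replicate block, omitting single arrays and leaving out replicate 1 of both genotypes. The scaling alternatives of the variation between arrays were added after seeing the data. The fitting was tested on simulated data.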

Additional observations from a re-analysis of the deposited data

How the results depend on the processing

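The count of probe sets past the thresholds was 575, and it was 292 with the methods' t-test, 114 with log2(signal + 16) and 57 when only signals past the 40th percentile were kept, which tests fewer probe sets. It was 440 with a variance trend, 567 with quantile normalization, 569 with median centring and 615 to 751 with 1 array left out. Of the 60 genes, 0 passed under all settings that kept every array (31 of them were left by the percentile filter). The count was 0 to 4 with 1 array left out. Without array 2 of 35S::OsHOX24 there were 2, UGT76E12 (-2.61) and UGT78D3 (-1.0), where 685 of all 22746 probe sets passed. Without its array 3 there were 4, where 722 of all probe sets passed. These were UGT72E3 (-2.53), UGT76E2 (-1.96), UGT85A3 (-1.60) and GSTU21, which reversed to 1.44 (-1.29 to 1.44 with 1 array left out). Without array 1 of WT UGT71B8 passed (2.41), where 669 of all probe sets did. Without array 3 of WT GSTU25 (-2.35) and UGT73C2 (2.55) passed, where 638 of all probe sets did. With replicate 1 of both genotypes left out, 1 gene passed, UGT71B8 (2.43), where 729 of all probe sets did. Of the genes named here, only GSTU25 had a mean signal above the median. With log2(signal + 16) and every array, UGT71B8 differed by 0.54, UGT73C2 by 0.19, UGT72E3 by -0.21 and GSTU25 by -1.27. Uncalled differences of 34 of the 60 genes changed sign under at least 1 of the 15 alternatives, and the cause was not tested. Under none of them did any probe set reach an adjusted p of 0.05, with limma or the t-test, while 278 to 965 had an unadjusted p under 0.05. With a replicate block, 678 probe sets and 0 of the 60 genes passed. Deviations of arrays with the same number (1, 2 and 3) correlated at 0.11, -0.20 and -0.18 over all probe sets and at 0.46, -0.50 and -0.53 over the brighter ones, so not every pair deviated together and the numbers were not taken as pairs. The median SD of the 27 brighter genes, 0.53, was 0.51 to 0.53 under other scalings, chosen after seeing the data.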

Other observations

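Genes outside the families were chosen after their values were seen and give no measure of their pathways. Their deviations from the genotype mean correlated with those of GSTU25 at 0.94 (APS3), 0.89 (APS4), 0.94 (GRXC2) and -0.72 (GRXC1). ATP sulfurylase, the first step of sulfate assimilation towards glutathione, is encoded by APS3 and APS4 among others. APS3 had 9.13, 8.18 and 10.07 in 35S::OsHOX24 and 9.77, 9.51 and 8.70 in WT, a difference of -0.20. It was highest on array 3 of 35S::OsHOX24 and lowest on array 3 of WT. APS4 had 10.16, 9.63 and 10.57 in 35S::OsHOX24 and 9.82, 9.91 and 9.54 in WT, a difference of 0.36. The glutaredoxin GRXC1 had 9.61, 9.87 and 9.44 in 35S::OsHOX24 and 10.00, 9.47 and 10.07 in WT. It was lowest on array 3 of 35S::OsHOX24 and array 2 of WT, as were 29.5% of all brighter probe sets. GRXC2 had 11.38, 11.31 and 11.92 in 35S::OsHOX24 and 12.27, 12.10 and 11.30 in WT, a difference of -0.35. None of these 4 genes passed the thresholds.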
